A study of Saccharomyces cerevisiae with 9 samples.

Results

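The genes described here encode the machinery of RNA polymerases I and III in the budding yeast Saccharomyces cerevisiae, 40 of the 5656 genes that the arrays could name alone. They were chosen by name: 24 polymerase subunits, 15 initiation factors and the repressor MAF1. A probe set, the group of short probes that reads 1 transcript, was kept where the platform annotation gave it exactly 1 of these genes, which left 49 of 9335 probe sets. Total RNA was read on Affymetrix YG-S98 arrays, 3 for each of 3 groups. Control BY4743 was grown in rich glucose medium (YPD) at 30 °C to an A600 of 0.8, spun down and resuspended in YPD diluted 1:20 at 22 to 25 °C. Dried BY4743 came from the same suspension, which took 42 h to dry at that temperature and was then held for 72 h at 20% relative humidity. The other group was commercial dry active yeast, for which strain, growth and drying are not given in the sources used here. BY4743 is a laboratory diploid of the S288C background that lacks functional URA3, LEU2 and HIS3 and is heterozygous for deletions at LYS2 and MET15. No undried BY4743 held for as long was analysed here, so drying, the time in dilute medium and the hold cannot be told apart, and "on drying" or "with drying" stands only for dried against control BY4743. Strain, culture and drying of the commercial yeast may each differ from those of BY4743 and cannot be told apart. Whether sequence differences lowered any probe set's signal was not tested. The labels do not say whether replicate arrays had cultures of their own, so the p-values reflect the spread among arrays, which may be technical.

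RNA polymerase I transcribes the repeated ribosomal DNA into the precursor of the large ribosomal RNAs, and RNA polymerase III makes transfer RNAs, 5S ribosomal RNA and other small RNAs. In growing yeast these polymerases account for most of all transcription, and both are shut down when nutrients run out or cells are stressed. RNA polymerase I reaches its promoter through the upstream activating factor, the core factor and Rrn3, which binds the enzyme. RNA polymerase III is brought in by TFIIIC, which recognises the gene, and TFIIIB, which TFIIIC places upstream of it, while Maf1 represses the enzyme. Some subunits are shared by both enzymes, and some also by RNA polymerase II, which makes messenger RNA. The arrays measured messenger RNA levels of these proteins, not the proteins or the activity of the polymerases.

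Signals are in array intensity units after quantile normalization, and changes are log2 differences between group means with the standard error (SE) of limma's fit. A gene is called higher or lower where the Benjamini-Hochberg adjusted p over 9275 probe sets is under 0.05, and it is represented by its brightest probe set. The background, set from control probe sets for absent targets, was 32.2 to 59.5, and 72.1 to 81.3% of probe sets lay above it. Of the subunits, 19 of 24 were above background on all 9 arrays, as were 12 of 15 initiation factors and MAF1. Arrays of a group correlated at 0.971 to 0.981 and arrays of different groups at 0.764 to 0.835. URA3 was at background in control (2.80 ± 0.398, SD, n = 3) and dried BY4743 (1.00, the floor) and at 365 ± 36.3 in the commercial yeast, whereas LEU2 read 84.5 ± 11.4 in control BY4743, above background on its 3 arrays, and 29.7 ± 14.4 in dried BY4743. Its other 2 probe sets were at background on all control and dried arrays. RNA quality differed between groups. The 3′ probe set of ACT1 minus its 5′ probe set, a log2 measure that rises with RNA degradation, was -0.395 ± 0.274 in control, 1.40 ± 0.173 in dried and 0.418 ± 0.098 in commercial yeast (3 arrays each). The same measure ranked the groups otherwise in the other control genes, at 1.31 ± 0.0912, 1.63 ± 0.107 and 1.99 ± 0.108 for SPT15 and 1.20 ± 0.271, 1.48 ± 0.0887 and 2.62 ± 0.40 for SRB4, highest in commercial yeast in both. The dried and control values of ACT1 did not overlap (two-sided exact permutation p = 0.1, the smallest that 3 against 3 arrays allow), and the part of RNA quality in the results below was not tested. A smaller number of cells, less RNA per cell and a change in a transcript's share cannot be told apart in such bulk RNA, because every array is set to the same distribution.

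In dried against control BY4743, most subunit genes were lower and most initiation factor genes higher. Of 24 subunit genes 19 were lower, 2 higher and 3 not called, with a median log2 change of -1.64. Of 15 initiation factor genes 10 were higher, 3 lower and 2 not called, with a median of 0.76. Of all 5656 genes 78.9% were called, 40.8% higher and 38% lower, with a median of 0.06, and of all 9275 probe sets 69.2% were called. For 37 of the 40 genes no dried array lay within the range of the control arrays or the reverse, against 83.8% of all genes and 74.6% of all probe sets. The 40 genes together gave 35 calls, 13 higher and 22 lower, so their number of calls was close to that of genes in general. With arrays scaled to spike-in controls, the median of the subunits was -2.07 and that of the factors 0.55. These are the 9 hybridisation control probe sets of the array. They follow the hybridisation and do not measure the RNA per cell, here or wherever spike-in scaling is given below. Of the 40 genes 6 were then higher and 20 lower. By class, 1 subunit gene was higher and 17 lower under that scaling. Only 5 of the 15 factor genes were then called higher, and 3 were lower.

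**Figure D1:**
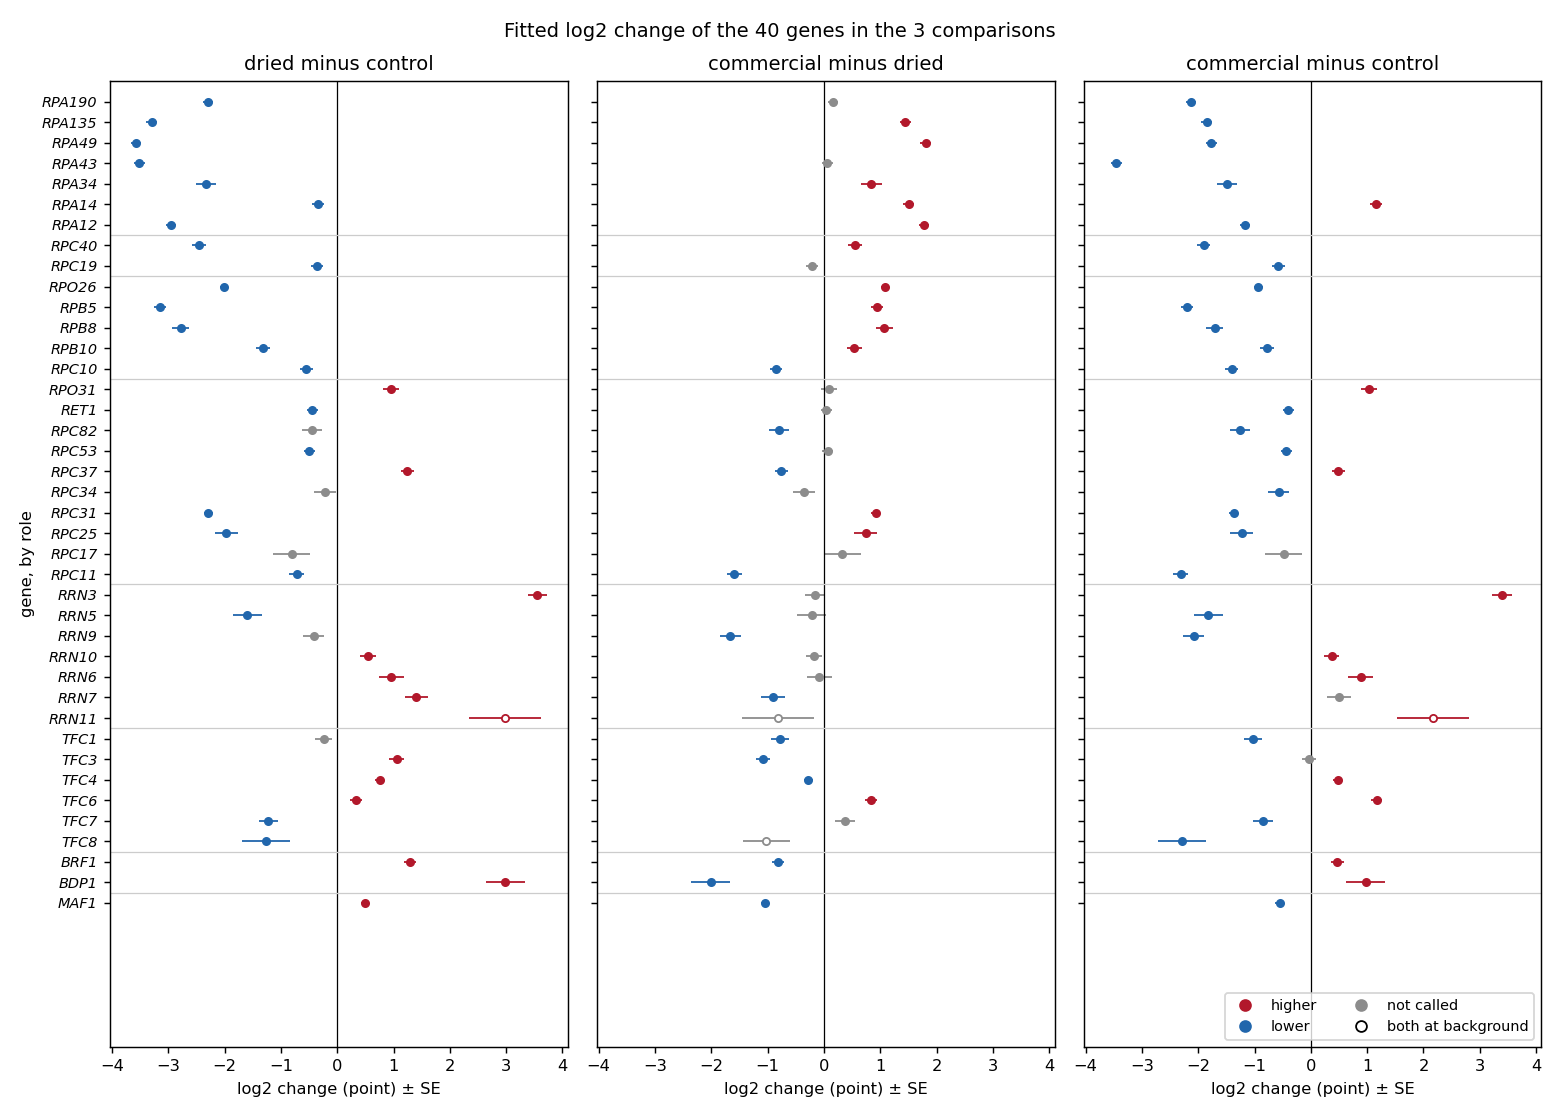
Fitted log2 change (horizontal axis, point) ± SE for each of the 40 genes (vertical axis, grouped by role) in the 3 comparisons, coloured by call; open points mark genes at background in both groups, for which no fold is given in the text. Subunits of RNA polymerase I lie between -3.57 and -0.34 in dried against control BY4743, and RRN3 lies at 3.55.

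All 7 genes of subunits found only in RNA polymerase I were lower in dried than in control BY4743, with a median of -2.95, the call of RPA14 being lost without any of 3 arrays. RPA190 (YOR341W), the largest subunit and part of the catalytic centre, had signals of 2547, 2330 and 2400 in control, 486, 488 and 517 in dried and 506, 557 and 605 in commercial yeast. The control arrays were far above the other 6, and the 2 dry groups overlapped. Its log2 change was -2.29 (SE 0.09, adjusted p = 2.09e-07) in dried against control and -2.13 (adjusted p = 3.48e-07) in commercial against control, and the difference between commercial and dried, 0.16, was not called (adjusted p = 0.151) but was -1.22 with spike-in scaling (adjusted p = 0.00558). RPA135 (YPR010C), the second largest subunit, had signals of 2223, 1733 and 1863 in control, 201, 190 and 198 in dried and 528, 559 and 520 in commercial yeast. The 3 groups did not overlap. It fell by 3.30 on the log2 scale with drying (SE 0.10, adjusted p = 7.66e-08) and was 1.45 higher in commercial than in dried yeast (adjusted p = 9.46e-06).

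RPA49 (YNL248C), which forms a dimer with the product of RPA34 on the surface of the enzyme, had signals of 674, 669 and 677 in control, 53.1, 55.7 and 61.7 in dried and 180, 202 and 213 in commercial yeast. The dried arrays were close to background, above it on 2 of 3. The change with drying was -3.57 (SE 0.09, adjusted p = 3.99e-08), the most negative fitted change of the 40 genes, and commercial exceeded dried yeast by 1.80 (adjusted p = 1.96e-06). Its partner RPA34 (YJL148W) had signals of 706, 768 and 643 in control, 155, 155 and 114 in dried and 272, 198 and 291 in commercial yeast. It changed by -2.33 with drying (SE 0.18, adjusted p = 9.52e-06) and by 0.84 from dried to commercial (adjusted p = 0.00404), which turned to -0.44 with spike-in scaling (adjusted p = 0.247).

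RPA43 (YOR340C), whose product is the part of the enzyme that Rrn3 contacts, had signals of 516, 442 and 542 in control, 44.0, 43.2 and 43.6 in dried and 48.4, 45.5 and 42.4 in commercial yeast. The dried arrays were all at background, so that the gene was at least 9.82-fold lower than in control (adjusted p = 4.9e-08), and commercial yeast differed from control by -3.46 on the log2 scale (SE 0.10, adjusted p = 5.81e-08). Commercial and dried yeast differed by 0.06 (adjusted p = 0.612), which became 0.53 and a call of higher without normalization (adjusted p = 0.00488) and 0.55 with arrays centred on their medians (adjusted p = 0.00205). RPA43 and RPA190 are neighbouring genes with 0 genes between them. Both were low in the 2 dry groups. By brightest probe set, the other 5 RNA polymerase I genes were higher in commercial than in dried yeast and these 2 were not called. However, 5 of the 7 probe sets of RPA190 were called higher in that comparison. RPA12 (YJR063W), a small subunit that acts in RNA cleavage, had signals of 288, 282 and 291 in control, 38.4, 38.2 and 35.1 in dried and 118, 141 and 125 in commercial yeast. It was at background in dried BY4743, at least 5.66-fold below control (adjusted p = 6.37e-08) and at least 2.52-fold below commercial yeast (adjusted p = 1.67e-06).

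RPA14 (YDR156W), which lies beside Rpa43 in the stalk of the enzyme, was the exception among the RNA polymerase I genes. Its signals were 922, 961 and 1059 in control, 698, 861 and 766 in dried and 2069, 2172 and 2326 in commercial yeast. The commercial arrays were above both other groups. It was lower in dried than in control BY4743 by little (-0.34, SE 0.10, adjusted p = 0.0188), a call lost without control replicate 3 or dried replicate 1 or 3 (adjusted p = 0.0654, 0.0644 and 0.0513), whereas commercial yeast exceeded dried by 1.50 (adjusted p = 8.35e-06) and control by 1.16 (SE 0.10, adjusted p = 2.2e-05, -0.57 with spike-in scaling). It was the only RNA polymerase I gene of 7 that was higher in commercial yeast than in control.

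**Figure D2:**
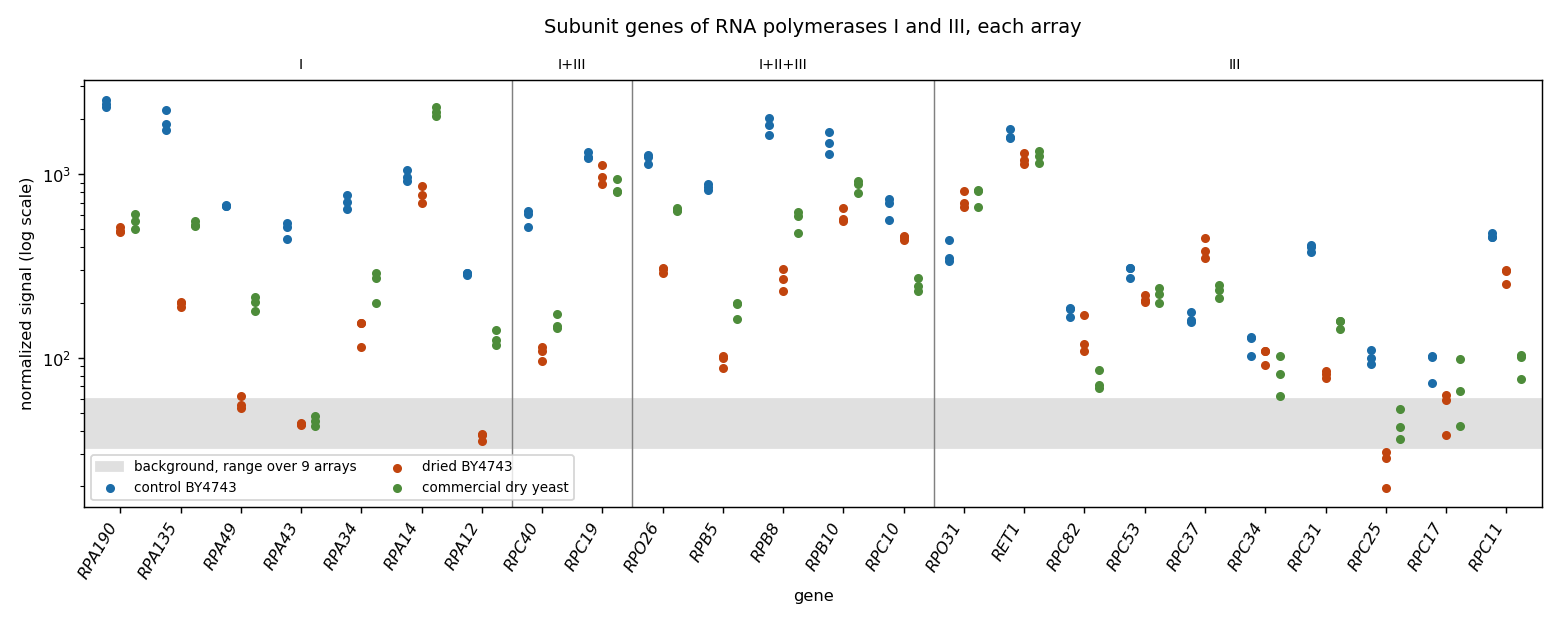
Normalized signal (vertical axis, log scale) of each subunit gene (horizontal axis, by role) on each of the 9 arrays, with 1 point per array coloured by group and a grey band for the range of background over arrays. RPA43 and RPA12 lie at background in dried BY4743, and RPA14 is at 2069 to 2326 in commercial yeast.

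RNA polymerases I and III share the pair RPC40 and RPC19, which start the assembly of the enzyme. RPC40 (YPR110C) had signals of 629, 513 and 610 in control, 96.1, 115 and 108 in dried and 145, 149 and 173 in commercial yeast. The 3 groups did not overlap, with a change of -2.45 (SE 0.12, adjusted p = 6.47e-07) on drying and of 0.55 from dried to commercial (adjusted p = 0.00409), which turned to -0.64 with spike-in scaling (adjusted p = 0.125). RPC19 (YNL113W) had signals of 1230, 1235 and 1318 in control, 1116, 882 and 959 in dried and 809, 801 and 936 in commercial yeast. It fell by 0.36 on the log2 scale with drying (adjusted p = 0.0192), a much smaller change than that of its partner, and the 2 dry groups overlapped (-0.21, adjusted p = 0.124). The call of RPC19 on drying was lost without control replicate 3 or dried replicate 2 or 3 (adjusted p = 0.0594, 0.0646 and 0.0541).

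All 5 genes of subunits common to RNA polymerases I, II and III were lower in dried than in control BY4743, by a median of -2.02. RPB5 (YBR154C), which forms part of the jaw that holds the DNA, had signals of 884, 821 and 846 in control, 102, 99.5 and 87.9 in dried and 199, 197 and 163 in commercial yeast. It fell by 3.14 with drying (SE 0.11, adjusted p = 1.05e-07), the largest fall among the shared subunits, and commercial yeast was still below control (a log2 change of -2.19, adjusted p = 7.25e-07). RPB8 (YOR224C) had signals of 1849, 1636 and 2021 in control, 268, 305 and 232 in dried and 475, 626 and 590 in commercial yeast, a change of -2.78 with drying (adjusted p = 1.1e-06). RPO26 (YPR187W), the shared subunit also called ABC23, had signals of 1234, 1141 and 1271 in control, 290, 303 and 308 in dried and 634, 627 and 650 in commercial yeast, a change of -2.02 (adjusted p = 1.46e-07). In each of these 3 genes the commercial arrays lay between the other groups, but with spike-in scaling the change from dried to commercial was -0.25 in RPB5 and -0.31 in RPB8 and RPO26. RPB10 (YOR210W) changed by -1.32 (adjusted p = 3.52e-05) and stood at 1482 ± 209, 593 ± 56.2 and 860 ± 67.0 in control, dried and commercial yeast. RPC10 (YHR143W-A) encodes the shared subunit Rpb12 and took another course, with signals of 728, 693 and 566 in control, 460, 437 and 453 in dried and 271, 247 and 231 in commercial yeast. It was lower at each step, by -0.55 on drying (adjusted p = 0.00281) and by -0.85 from dried to commercial (SE 0.11, adjusted p = 0.00028).

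The 10 genes of subunits found only in RNA polymerase III were mixed, with 2 higher, 5 lower and 3 not called in dried against control BY4743 and a median of -0.48. RPO31 (YOR116C), the largest subunit, had signals of 349, 437 and 336 in control, 698, 659 and 805 in dried and 808, 665 and 824 in commercial yeast. Both dry groups were above every control array, by 0.95 (SE 0.14, adjusted p = 0.000457) in dried and 1.04 (adjusted p = 0.000265, -0.61 with spike-in scaling) in commercial yeast. RET1 (YOR207C), the second largest subunit, had signals of 1600, 1765 and 1573 in control, 1192, 1141 and 1302 in dried and 1144, 1259 and 1340 in commercial yeast. It was lower in dried (-0.44, adjusted p = 0.00355) and in commercial yeast (-0.40, adjusted p = 0.00557). The 2 catalytic subunits of RNA polymerase III thus moved in opposite directions, while those of RNA polymerase I fell together. In commercial yeast the opposite direction depended on the normalization, since RPO31 turned to -0.61 with spike-in scaling.

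Among the initiation and termination subunits of RNA polymerase III, RPC31 (YNL151C), which belongs to the trimer that contacts TFIIIB, had signals of 403, 379 and 413 in control, 84.8, 78.0 and 81.4 in dried and 143, 160 and 160 in commercial yeast. Its change of -2.29 on drying (SE 0.08, adjusted p = 1.28e-07) was the largest fall among the genes of subunits found only in RNA polymerase III, and the groups did not overlap. The other members of the trimer were not called on drying. RPC82 (YPR190C) had signals of 183, 186 and 166 in control, 120, 109 and 171 in dried and 86.3, 71 and 68.1 in commercial yeast, a change of -0.45 on drying (adjusted p = 0.0508) that became -0.64 without dried replicate 3 (adjusted p = 0.00402). RPC34 (YNR003C), which binds TFIIIB directly, was at 120 ± 15.2, 103 ± 9.89 and 81.9 ± 20.0, with adjusted p = 0.334 on drying and a call of lower in commercial yeast against control (-0.57, adjusted p = 0.0263). That call of RPC34 was lost without control replicate 1 or 2 (adjusted p = 0.0777 and 0.0756) or commercial replicate 1 or 3 (0.0546 and 0.0668).

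RPC37 and RPC53 encode a dimer that acts in termination and reinitiation, and their transcripts moved apart. RPC37 (YKR025W) had signals of 157, 160 and 179 in control, 350, 447 and 383 in dried and 249, 212 and 234 in commercial yeast. It was higher on drying by 1.24 (SE 0.12, adjusted p = 2.67e-05), the largest rise among the subunits, and commercial yeast was below dried (a change of -0.76, adjusted p = 0.000606). RPC53 (YDL150W) was at 296 ± 19.8, 210 ± 9.47 and 220 ± 19.8, lower in dried (-0.50, adjusted p = 0.00193) and in commercial yeast (-0.43, adjusted p = 0.00381). RPC11 (YDR045C), which cleaves RNA and joins this dimer in termination, had signals of 480, 457 and 452 in control, 295, 252 and 299 in dried and 101, 77.2 and 104 in commercial yeast. It was lower at each step, by -0.72 on drying (adjusted p = 0.0015) and by -1.59 from dried to commercial yeast (SE 0.13, adjusted p = 2.14e-05), the largest fall in that comparison among the subunits.

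The stalk subunits RPC25 and RPC17 were dim. RPC25 (YKL144C) was at 101 ± 9.35 in control and at background in dried BY4743, at least 1.99-fold lower (adjusted p = 4.92e-05). In commercial yeast it was above background on 2 of 3 arrays, at 43.5 ± 8.37. Its call of higher in commercial than in dried yeast (0.74, adjusted p = 0.0123) turned to -0.21 with signals floored at background. RPC17 (YJL011C) was at 92.2 ± 16.4, 53.4 ± 13.4 and 69.0 ± 28.2 and was called in none of the 3 comparisons (adjusted p = 0.0589 on drying).

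RRN3 (YKL125W), which makes RNA polymerase I competent to initiate, went against the subunits it works with. Its signals were 65.4, 77.8 and 66.4 in control, 834, 776 and 845 in dried and 876, 554 and 809 in commercial yeast. All 6 dry arrays were above all control arrays and the 2 dry groups overlapped. It was 11.7-fold higher in dried than in control BY4743 (log2 change 3.55, SE 0.17, adjusted p = 6.18e-07) and 10.5-fold higher in commercial yeast than in control (3.39, SE 0.17, adjusted p = 9.64e-07), and commercial and dried yeast differed by -0.16 (adjusted p = 0.437). With spike-in scaling the changes against control were 3.33 and 1.81, and that between commercial and dried yeast was -1.52 (adjusted p = 0.00119).

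The core factor, which binds the promoter next to the start site, is made of the products of RRN6, RRN7 and RRN11, and all 3 were called higher in dried than in control BY4743. RRN6 (YBL014C) had signals of 105, 90.9 and 75.8 in control, 211, 150 and 169 in dried and 219, 158 and 131 in commercial yeast, with changes of 0.96 (SE 0.22, adjusted p = 0.00487) and 0.88 (adjusted p = 0.00716) against control, the second turning to -0.58 with spike-in scaling. RRN7 (YJL025W), a relative of TFIIB, had signals of 53.5, 52.1 and 47.6 in control, 145, 175 and 97.4 in dried and 68.7, 83.5 and 64.9 in commercial yeast. It was highest in dried BY4743, 1.41 above control (SE 0.21, adjusted p = 0.000465), and commercial yeast was lower than dried (-0.91, adjusted p = 0.00548). RRN11 (YML043C) lay at or below background on all 9 arrays, at 4.01 ± 2.97, 24.5 ± 5.36 and 14.1 ± 3.78, so its calls of higher in dried (adjusted p = 0.00362) and commercial yeast (adjusted p = 0.0161) are given with no fold, and with signals floored at background neither call held, with changes from control of 0.31 in dried (adjusted p = 0.137) and -0.14 in commercial yeast (adjusted p = 0.483).

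The upstream activating factor, which binds farther from the start site, did not move as a unit. RRN5 (YLR141W) had signals of 605, 780 and 675 in control, 228, 235 and 214 in dried and 135, 181 and 294 in commercial yeast. It fell in both dry groups, by 1.60 (SE 0.26, adjusted p = 0.000722) and 1.82 (adjusted p = 0.000326) on the log2 scale. RRN9 (YMR270C) had signals of 144, 151 and 140 in control, 97.6, 114 and 114 in dried and 24.9, 41.7 and 38.6 in commercial yeast. The commercial arrays were the lowest and close to background, above it on 2 of 3. The change was -1.66 from dried (SE 0.19, adjusted p = 0.000118) and -2.08 from control (adjusted p = 2.31e-05), and the change on drying of -0.42 was not called (adjusted p = 0.0794). RRN10 (YBL025W) was at 121 ± 18.1, 175 ± 19.2 and 155 ± 14.2. It was higher on drying (0.54, adjusted p = 0.00864), and its call in commercial yeast against control (0.37, adjusted p = 0.0424) came with overlapping arrays, was lost without any of 5 arrays (control replicates 2 and 3, dried replicate 1 and commercial replicates 1 and 2, adjusted p = 0.0608 to 0.132) and turned to -1.09 with spike-in scaling.

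**Figure D3:**
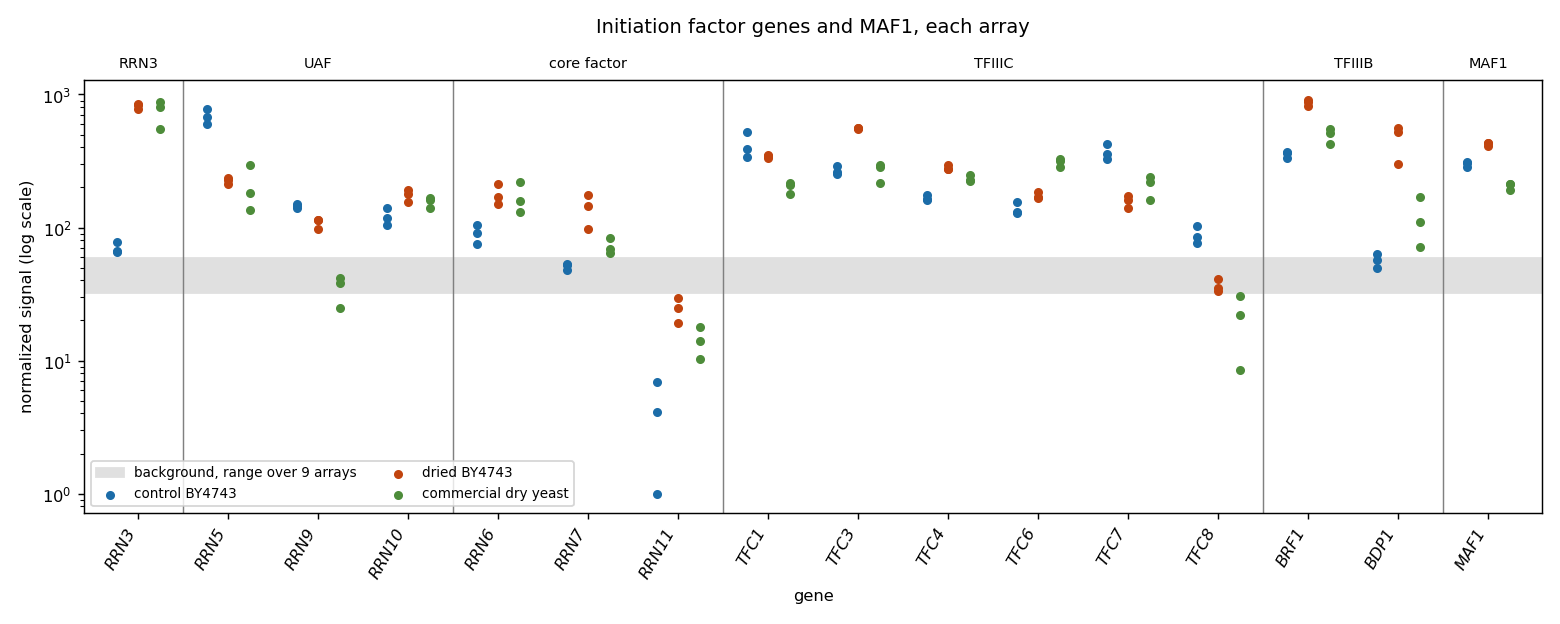
Normalized signal (vertical axis, log scale) of each initiation factor gene and of MAF1 (horizontal axis, by role) on each of the 9 arrays, with 1 point per array coloured by group and a grey band for the range of background over arrays. RRN3 is at 65.4 to 77.8 in control and at 554 to 876 on the 6 dry arrays, and BDP1 is highest in dried BY4743.

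Both RNA polymerase III genes read for TFIIIB were higher in dried than in control BY4743. BRF1 (YGR246C), the TFIIB-related subunit that bridges TFIIIC and the polymerase, had signals of 368, 364 and 334 in control, 822, 912 and 876 in dried and 423, 512 and 552 in commercial yeast. The 3 groups did not overlap, with changes of 1.29 on drying (SE 0.11, adjusted p = 1.82e-05) and of -0.82 from dried to commercial (adjusted p = 0.000342). BDP1 (YNL039W), the subunit that completes TFIIIB and helps open the DNA, had signals of 63.4, 49.3 and 57.3 in control, 301, 561 and 524 in dried and 171, 111 and 71.9 in commercial yeast. It was 7.90-fold higher in dried than in control BY4743 (log2 change 2.98, SE 0.35, adjusted p = 0.000104), and commercial yeast was lower than dried by -2.01 (adjusted p = 0.00119), the largest fall in that comparison among the 40 genes. The call of BDP1 in commercial yeast against control (0.97, adjusted p = 0.0339) was lost without any single control array or commercial replicate 1 or 2 (adjusted p = 0.0535 to 0.1) and turned to -0.41 with spike-in scaling.

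TFIIIC was split, with 3 of its 6 genes higher, 2 lower and 1 not called in dried against control BY4743. TFC3 (YAL001C), the largest subunit, which contacts the B box inside the gene, had signals of 291, 254 and 262 in control, 559, 560 and 553 in dried and 285, 297 and 214 in commercial yeast. It was 1.05 higher in dried BY4743 (SE 0.13, adjusted p = 0.000151) and commercial and control arrays overlapped (-0.03, adjusted p = 0.852). TFC4 (YGR047C), which recruits TFIIIB, was at 167 ± 7.94, 282 ± 10.8 and 232 ± 12.5, a change of 0.76 on drying (adjusted p = 5.03e-05). TFC6 (YDR362C), a subunit of the B-box-binding lobe of the complex, had signals of 131, 128 and 155 in control, 184, 167 and 170 in dried and 287, 328 and 315 in commercial yeast. It rose by 0.34 (adjusted p = 0.018) on drying, a call lost without control replicate 1 or 2 or dried replicate 1 (adjusted p = 0.0564, 0.0612 and 0.063), and was the only initiation factor gene higher in commercial than in dried yeast (0.84, adjusted p = 0.000167, -0.47 with spike-in scaling). TFC7 (YOR110W) had signals of 325, 358 and 424 in control, 160, 141 and 173 in dried and 160, 219 and 240 in commercial yeast, lower in both dry groups by -1.22 (adjusted p = 0.00037) and -0.85 (adjusted p = 0.00271). TFC1 (YBR123C), its partner in the A-box-binding lobe, was at 415 ± 93.2, 345 ± 9.29 and 202 ± 19.5, not called on drying (-0.24, adjusted p = 0.208) and lower in commercial yeast than in control (-1.02, adjusted p = 0.000543). TFC8 (YPL007C) had signals of 84.2, 76.0 and 103 in control and was at background in both dry groups, at least 1.71-fold lower in dried (adjusted p = 0.0285) and at least 2.34-fold lower in commercial yeast (adjusted p = 0.00153). The first of these calls was lost when any of 5 arrays was left out.

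MAF1 (YDR005C), the repressor of RNA polymerase III, had signals of 309, 305 and 285 in control, 431, 408 and 429 in dried and 190, 211 and 213 in commercial yeast. The 3 groups did not overlap. Dried BY4743 was above control by 0.49 (SE 0.08, adjusted p = 0.000672, and 0.27 with adjusted p = 0.538 under spike-in scaling), and commercial yeast was below control by -0.55 (adjusted p = 0.00033) and below dried by -1.05 (adjusted p = 1.28e-05). The 2 dry yeasts thus lay on opposite sides of the control for this transcript.

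Commercial yeast was set against dried BY4743 to compare one dry product with another; the comparison shares the dried arrays with the first. Of the 24 subunit genes 12 were higher, 4 lower and 8 not called, with a median of 0.43 that became -0.67 with spike-in scaling. Of the 15 initiation factor genes 1 was higher, 7 lower and 7 not called, with a median of -0.78. Of all genes 70.2% were called, 32.1% higher and 38.1% lower, and of all probe sets 66.5%. Groups did not overlap for 27 of the 40 genes, against 76.8% of all genes and 72.8% of probe sets. Together 25 of the 40 genes were called, 13 higher and 12 lower, and with spike-in scaling 1 was higher and 25 lower. Within RNA polymerase I 5 of 7 genes were higher (RPA34 turned negative with spike-in scaling), and among the subunits common to all 3 polymerases 4 of 5 were (all 4 turned negative). Within RNA polymerase III the counts were 2 higher, 3 lower and 5 not called.

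Against control BY4743, commercial yeast had 20 of 24 subunit genes lower, 3 higher (RPA14, RPO31 and RPC37, all 3 turning negative with spike-in scaling) and 1 not called (RPC17), with a median of -1.24. Of the initiation factor genes 8 were higher, 5 lower and 2 not called, with a median of 0.47 that turned to -1.09 with spike-in scaling. Of all genes 79% were called, 37.2% higher and 41.8% lower, and of all probe sets 72.5%. For 37 of the 40 genes the groups did not overlap, against 82.1% of all genes and 75.5% of probe sets. Of the 40 genes 37 were called, 11 higher and 26 lower, and with spike-in scaling 2 were higher and 33 lower. This comparison shares its control arrays with the first and its commercial arrays with the second.

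**Figure D4:**
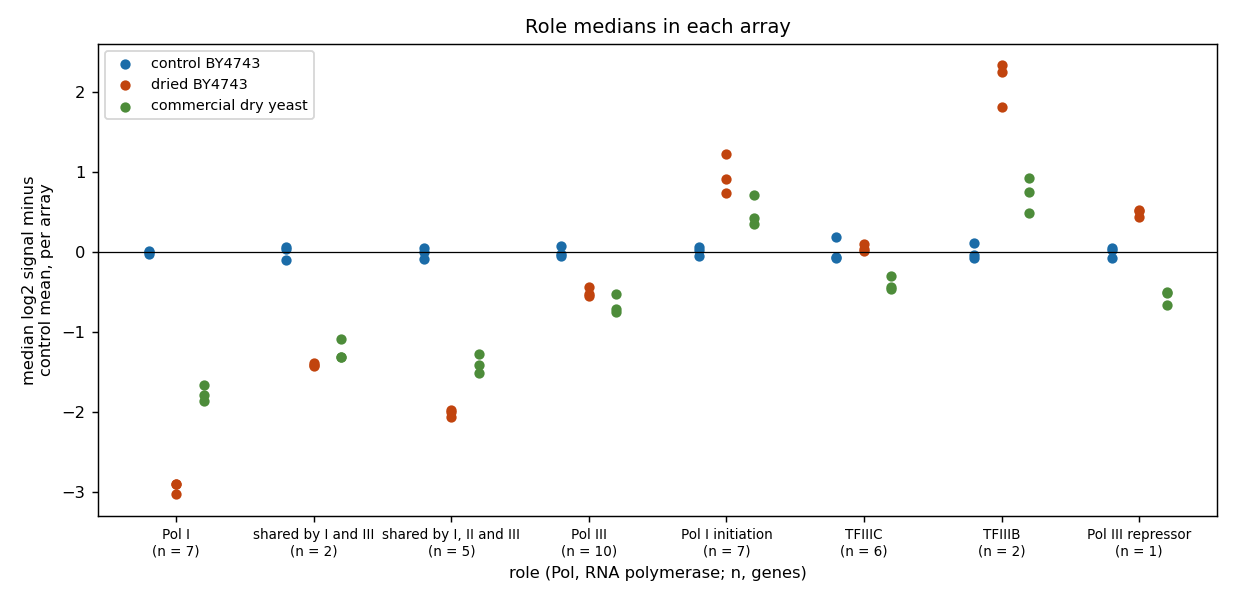
Median over the genes of a role of the log2 signal minus that gene's control mean (vertical axis), for each of the 9 arrays coloured by group, with roles and their number of genes on the horizontal axis. RNA polymerase I lies at -3.03 to -2.90 in dried and -1.87 to -1.66 in commercial yeast, and TFIIIB at 1.81 to 2.34 and 0.49 to 0.92.

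The share of all genes with each pattern given here was not counted, so whether the counts differ from genes in general is not known. The 3 comparisons also share arrays, so their calls are not independent. Following each gene through the 3 comparisons, 11 subunit genes were lower in dried than in control BY4743, higher in commercial than in dried yeast and still below control in commercial yeast, although 7 of these 11 turned negative between commercial and dried yeast with spike-in scaling: RPA135, RPA49, RPA34, RPA12, RPC40, RPO26, RPB5, RPB8, RPB10, RPC31 and RPC25. In 5 others, RPA190, RPA43, RPC19, RET1 and RPC53, both dry yeasts were below control with no call between them. RPC10 and RPC11 were lower at each step. Among the initiation factors RRN3, RRN6 and RRN10 were called above control in both dry yeasts with no call between them, of which the RRN10 call in commercial yeast was lost without any of 5 arrays, TFC4, BRF1 and BDP1 were above control in both and highest in dried BY4743, and RRN5, TFC7 and TFC8 were below control in both. RRN11 had the same calls as RRN3 but was above background on none of the 9 arrays, and its calls were lost with signals floored at background. Of the 8 initiation factor genes called above control in commercial yeast, 6 turned negative with spike-in scaling and RRN3 and RRN11 did not, while RRN11 turned to -0.14 with the floor at background.

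For 3 genes the probe sets disagreed in call. RPA190 had 7 probe sets, all lower in dried than in control BY4743, with changes from -4.64 to -1.89, but 5 of them were higher in commercial than in dried yeast and 2, the brightest included, were not called, with changes from 0.11 to 2.75. The mean of its probe sets gave 1.00 for that comparison (adjusted p = 0.000134). In RRN5, 2 of 3 probe sets were lower on drying and 1 was not called, with changes from -1.60 to -0.72. The dimmer probe set of TFC3 was likewise higher on drying (0.92) but also above control in commercial yeast (0.72). From dried to commercial yeast it was not called (-0.20, adjusted p = 0.15), whereas the brightest was lower (-1.08). In that comparison 1 of 3 probe sets of RRN5 was lower (-0.90, adjusted p = 0.0129), while its brightest was not called. In commercial yeast against control, 6 of 7 probe sets of RPA190 were lower and 1 was not called, with changes from -2.47 to -0.35. For RRN5 2 were lower and 1 was not called, with changes from -1.82 to -1.64.

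RNA polymerase II also has subunits of its own, which serve messenger RNA synthesis. Of its 7 genes 4 were lower, none higher and 3 not called in dried against control BY4743, with a median of -0.82. That is 57.1% called, against 78.9% of all genes, of which 40.8% were higher and 38% lower. Its largest subunit gene RPO21 was at 3411 ± 369 in control, 2897 ± 379 in dried and 4014 ± 506 in commercial yeast, not called on drying (-0.24, adjusted p = 0.17). RPB2, the second largest, was not called either (-0.21, adjusted p = 0.127), whereas RPB11 and RPB9, small subunits, fell by 1.85 (adjusted p = 0.000137) and 1.73 (adjusted p = 2.6e-06) on the log2 scale. The difference in change between the polymerases was not tested.

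Other factors that act with RNA polymerases I and III, a list of 11, gave 4 higher, 5 lower and 2 not called on drying. Among all genes 40.8% were higher and 38% lower, so this count was close to that of genes in general. LHP1, the yeast La protein that binds the ends of new RNA polymerase III transcripts, went from 480 ± 34.7 to 118 ± 16.9 (-2.03, adjusted p = 1.6e-06) and was at 236 ± 11.2 in commercial yeast. SPT15, the TATA-binding protein used by all 3 polymerases and a component of TFIIIB, was higher in dried BY4743 (0.64, adjusted p = 0.000409). The 5S gene factor PZF1 (TFIIIA) was not called in any comparison and was above background on 1 of 9 arrays. Of 13 genes of growth signalling that reaches these polymerases, 8 were higher, 3 lower and 2 not called on drying, with a median of 0.66, against 40.8% higher and 38% lower among all genes. SCH9, the kinase that TORC1 activates and that promotes transcription by RNA polymerases I and III, rose from 338 ± 18.1 in control to 2727 ± 149 in dried (3.01, adjusted p = 5.47e-08) and stood at 1807 ± 114 in commercial yeast. TOR1, a kinase of TORC1, was highest in commercial yeast, at 952 ± 56.4 against 365 ± 26.7 in dried and 232 ± 36.1 in control, with adjusted p = 3.47e-05 between commercial and dried. CKA2, a catalytic subunit of casein kinase 2, which phosphorylates factors of both polymerases, fell by 1.69 on the log2 scale with drying (adjusted p = 6.54e-06).

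Some products of RNA polymerase III are on the array and were set beside the genes after their values were seen. RPR1, the RNA of ribonuclease P, had signals of 294, 482 and 423 in control, 4818, 5000 and 4728 in dried and 1166, 1469 and 1314 in commercial yeast, a change of 3.63 on drying (SE 0.18, adjusted p = 7.3e-07). SNR6, the U6 spliceosomal RNA, had signals of 202, 208 and 179 in control, 4396, 4268 and 4129 in dried and 369, 380 and 498 in commercial yeast, a change of 4.44 (adjusted p = 5.57e-08). Both were highest in dried BY4743. The spliceosomal RNA SNR14 (U4), which RNA polymerase II makes, did the same, with signals of 104, 69.3 and 56.7 in control, 4405, 4629 and 4486 in dried and 586, 737 and 728 in commercial yeast (5.92, adjusted p = 1.4e-07). SNR19 (U1) rose by 1.96 (adjusted p = 8.04e-06), and SNR7-L (U5), at background in control, was at least 28.1-fold higher in dried BY4743. Of 59 probe sets for small nucleolar RNAs, 18 were higher, 15 lower and 26 not called on drying, with a median of 0.09. Among all probe sets 36.2% were higher and 33% lower.

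Among 92 transfer RNA probe sets 62 were higher, 1 lower and 29 not called in dried against control BY4743, with a median of 1.81, against 36.2% of all probe sets higher. In commercial yeast 84 were higher than in control and 2 lower, against 35.5% higher and 37% lower among all probe sets. Of these probe sets 89 share probes with other sequences by the suffix of their names, so they cannot be taken as separate genes. The 5S ribosomal RNA went the other way in its brightest probe set, which had signals of 388, 480 and 474 in control, 79.2, 66.7 and 37.1 in dried and 93.0, 176 and 85.1 in commercial yeast (RDN5-1, -2.94 on drying, adjusted p = 0.000124), and that of RDN5-3 changed by -0.87 (adjusted p = 0.00313). Probe sets for the 18S and 25S ribosomal RNAs, products of RNA polymerase I, are array controls and were not tested. They were mixed. A 25S probe set read 916, 1199 and 853 in control, 2271, 3162 and 1673 in dried and 3585, 3601 and 2861 in commercial yeast. Another spread from 139 to 4036 within dried BY4743. An 18S probe set read 57.8 to 82.0 in control and 35.7 to 48.4 in dried. How the labelled RNA was primed is not stated in the sources used here, so the level of these mostly unpolyadenylated RNAs and how well they were copied cannot be told apart.

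**Figure D5:**
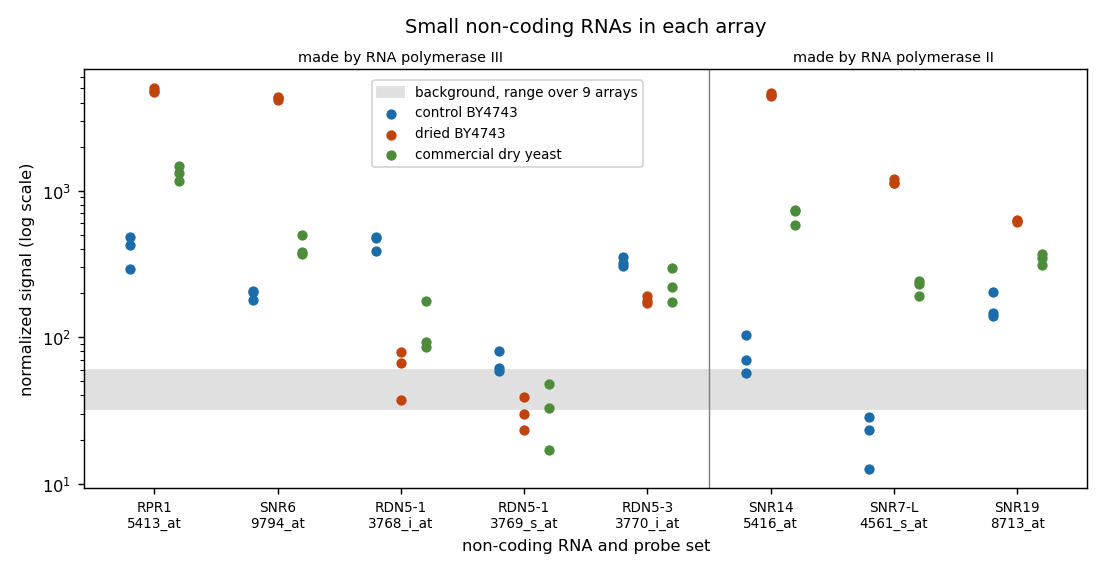
Normalized signal (vertical axis, log scale) of small non-coding RNAs and their probe sets (horizontal axis) on each of the 9 arrays, with 1 point per array coloured by group, a grey band for the range of background and a vertical line between RNAs made by RNA polymerase III and by RNA polymerase II. RPR1 and SNR6 are at 4129 to 5000 in dried BY4743, as is SNR14 at 4405 to 4629, while RDN5-1 and RDN5-3 are lower in dried BY4743 than in control.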

How the data were processed

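The deposited files hold linear intensities, 1 for each probe set of an array. Per the labels' protocols, labelled RNA was hybridised, images were read with the manufacturer's software, and signals passed a signed rank test, then a mixed model; versions are not given in the sources used here. Groups came from the sample titles. Intensities under 1 were raised to 1, log2 was taken, and arrays were quantile normalized, since their log2 medians spanned over 0.1. With limma 3.58.1 in R 4.3.3, 1 mean per group was fitted to 9 arrays and contrasts were tested two-sided with eBayes, adjusted by Benjamini-Hochberg over 9275 probe sets at 0.05. The fit was run on simulated data with independent noise and a small part of the probe sets changed. These were drawn after normalization, so that run does not test the normalization or a change in most probe sets. Background was the 95th percentile of absent-target control probe sets on each array. A group at background on all 3 arrays gives a bound ("at least"), computed against the higher of background and the signal on each array, and no fold is given where both groups are there.

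The 40 genes, the context lists and the alternatives were chosen with earlier results of these data known, so lists have counts and medians and no p. All 40 genes are described. Signals on every array are given for RRN3, MAF1, the 2 largest subunits of each polymerase and most others. They are also given for the 3 largest changes in each direction among subunits and among factors, except RRN11 and TFC8. Alternatives were the values as deposited, median centring, spike-in scaling, an offset of 50, a floor at background, leaving out the dimmest 25% of probe sets, the mean of a gene's probe sets, only probe sets without shared probes, a trended robust fit, a replicate block and leaving out each array. Promoter and protein sequences and genome coordinates were not used here. Names come from the platform annotation, updated through the RefSeq gene table. No scan dates were used, and groups and hybridisation batches cannot be told apart where they coincide. The number of arrays limits the precision.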

Additional observations from a re-analysis of the deposited data

How the results depend on the processing

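Leaving out single arrays kept the direction of the subunit and factor medians. The ranges on drying were -1.70 to -1.51 (subunits), 0.72 to 0.79 (factors), 12 to 13 genes higher, 19 to 24 lower and 6013 to 6434 probe sets called. For commercial against dried yeast they were 0.37 to 0.54, -0.84 to -0.53, 13 to 14, 12 to 13 and 5730 to 6154, and for commercial against control -1.30 to -1.19, 0.40 to 0.49, 9 to 12, 25 to 26 and 6384 to 6640. Deviations of same-numbered arrays correlated at -0.0401 to 0.0432. These values show no pairing by number but cannot exclude that same-numbered arrays were handled together. With a replicate block 6330, 6015 and 6618 probe sets were called in the 3 comparisons. Of the 40 genes 13, 13 and 10 were then higher and 21, 12 and 26 lower. Without normalization the factor median was 0.97 on drying, the medians were 0.56 (subunits) and -0.28 (factors) for commercial against dried, and the subunit median was -1.03 for commercial against control. Median centring gave a subunit median of -1.83 on drying and 0.59 and -0.25 for commercial against dried. The floor at background gave -1.15 and 0.54 on drying, 0.19 and -0.45 for commercial against dried and a factor median of 0.37 for commercial against control, and the offset of 50 gave -1.12 and 0.46, 0.24 and -0.24, and -0.90 and 0.27. Without the dimmest 25% of probe sets, with 37 of the 40 genes measured, the subunit median was -1.32 on drying and the factor median -0.28 for commercial against dried. Spike-in scaling moved the median of all probe sets from 0.04, 0.00 and -0.01 to -0.29, -1.10 and -1.43, and the share of calls that were higher from 52.3, 49.7 and 49% to 37.2, 13.2 and 11.8%; the floor at background made it 38.4% for commercial against dried. Under spike-in scaling the medians were -2.07 and 0.55 on drying (6 genes higher), -0.67 and -1.52 for commercial against dried (1 higher, 25 lower) and -2.68 and -1.09 for commercial against control (2 higher). Relative to the median of all probe sets they were -1.78 and 0.85, 0.43 and -0.41, and -1.25 and 0.34. With it, the change from dried to commercial turned to -1.22 in RPA190, -0.44 in RPA34, -0.64 in RPC40, -0.31 in RPO26, -0.25 in RPB5, -0.31 in RPB8, -0.86 in RPB10, -1.29 in RPO31, -1.33 in RET1, -1.23 in RPC53, -0.22 in RPC31, -0.47 in TFC6 and -0.89 in TFC7. The change from control to commercial turned to -0.57 in RPA14, -0.61 in RPO31, -1.03 in RPC37, -1.09 in RRN10, -0.58 in RRN6, -0.80 in RRN7, -1.04 in TFC4, -0.36 in TFC6, -1.14 in BRF1 and -0.41 in BDP1. The floor at background turned RPC25 to -0.21 (commercial against dried) and RRN11 to -0.14 (commercial against control), and the mean of probe sets turned TFC3 to 0.34 (commercial against control). The causes were not tested. Some genes gained a call without 1 array: on drying RPC17 (adjusted p = 0.0317 and 0.0287 without commercial replicate 1 or 2) and RRN9 (0.00567 without commercial replicate 1); for commercial against dried RRN11 (0.0462 without control replicate 2), TFC7 and TFC8 (0.0153 and 0.0148 without commercial replicate 1), RPC34 (0.0344 without commercial replicate 2) and RRN5 (0.0259 without commercial replicate 3); and for commercial against control RRN7 (0.0377 and 0.0127 without dried replicate 2 or 3). Of the single-gene values under all alternatives, 2145 kept direction and side of the threshold, 52 gained a call, 48 lost it and 26 changed sign. Genes near background, RRN11, TFC8, RPC25, RPC17 and RRN9 among them, are limited by signal.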
